A study of Homo sapiens with 24 samples.

Results

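The 45 genes described here encode the enzymes that charge transfer RNAs with amino acids and the enzymes that modify them. They were taken by name from a fixed list, which was chosen with earlier results of these data known. Each matched 1 of the 60609 gene rows of the deposited table. They comprise 19 cytosolic aminoacyl-tRNA synthetases or their subunits, 3 scaffold proteins of the multi-synthetase complex, 8 genes of wobble uridine modification, 8 genes for tRNA methylation, and 7 genes for deamination, queuine exchange, pseudouridylation and acetylation. All 45 passed the filter on low values (at least 1 TPM in at least 3 libraries), which kept 16062 genes. TPM is transcript abundance per length, scaled to a fixed total.

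RNA came from A549, an established human lung adenocarcinoma line. Cells were transfected for 48 h with an siRNA pool against BOP1, a factor of large ribosomal subunit maturation (siBOP1), or with an siRNA against firefly luciferase (siFLuc). They then received 1000 U/mL interferon beta (IFN) or a mock treatment, and were harvested at 8 h or 12 h, which gives 8 groups of 3 libraries. Libraries were made from polyadenylated RNA, so the values describe the mRNAs of these enzymes and not tRNA abundance, charging or modification.

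Each synthetase joins 1 amino acid to its tRNAs at the cost of ATP, except EPRS1, which serves both glutamate and proline. Several cytosolic synthetases sit together on the scaffold proteins AIMP1, AIMP2 and EEF1E1. Elongator (the ELP proteins), ALKBH8 and the thiolase pair CTU1 and CTU2 build the modified uridines at the wobble position of the anticodon, and other enzymes add methyl groups, inosine, queuosine, pseudouridine or acetylcytidine. Many synthetase genes are known targets of ATF4, the transcription factor of the amino acid stress response, and WARS1, the tryptophanyl-tRNA synthetase, is known to be induced by interferons.

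The promoter windows of RefSeq (GRCh38.p14; 250 bases before to 50 after a transcription start) held 51 entries for 38 of the 45 members. Sequences are shown for WARS1, the member with the large IFN response, and for the synthetases whose windows hold a motif used to group them in the comparison of the libraries numbered 4. RefSeq lists 2 starts of WARS1, 980 bases apart on the minus strand. The 250 bases before the downstream start (chr14:100375348-100375597) are printed because no other member's window held the interferon-stimulated response element core, a pair of GAAA blocks with NN between them, searched on both strands. That core lies at -55 to -46 and a gamma-activated site, searched as TTCNNNGAA, at -142 to -134. Both are in capitals.
WARS1: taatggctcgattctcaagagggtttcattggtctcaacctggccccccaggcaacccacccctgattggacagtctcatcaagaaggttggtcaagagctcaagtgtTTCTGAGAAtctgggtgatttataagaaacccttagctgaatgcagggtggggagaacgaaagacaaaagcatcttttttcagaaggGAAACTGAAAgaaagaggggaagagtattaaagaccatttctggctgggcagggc

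The response element core was in 1 of the 51 member windows and in 3.57% of all 35116 windows, and the gamma-activated site in 6 of 51 and in 7.66%. Gene-level TPM does not separate transcripts from the 2 starts. The amino acid response element core, which ATF4 dimers are known to bind, was searched as TGATGNAA on both strands. It was in 7 of the 51 member windows, 1 for each of 7 synthetases, and in 3.62% of all windows. The 30 bases around each match are given with the match in capitals. TTGCATCA and TTTCATCA are the core read on the other strand.
CARS1 (chr11:3057407-3057436, minus strand): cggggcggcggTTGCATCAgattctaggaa
MARS1 (chr12:57488053-57488082, plus strand): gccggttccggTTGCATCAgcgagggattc
GARS1 (chr7:30594834-30594863, plus strand): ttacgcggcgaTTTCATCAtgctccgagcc
AARS1 (chr16:70289675-70289704, minus strand): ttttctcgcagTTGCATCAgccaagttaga
IARS1 (chr9:92293692-92293721, minus strand): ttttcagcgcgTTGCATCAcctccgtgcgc
TARS1 (chr5:33440956-33440985, plus strand): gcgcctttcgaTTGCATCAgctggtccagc
NARS1 (chr18:57621804-57621833, minus strand): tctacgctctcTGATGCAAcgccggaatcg
A match is a description of the sequence and no measure of binding.

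In each library 13844 to 14509 genes had a value of 1 TPM or more. The depth of the libraries is unknown because the values are TPM. BOP1 itself lay at 28.1%, 23.5%, 29.6% and 24.1% of the siFLuc mean with siBOP1 (mock at 8 h and 12 h, then IFN at 8 h and 12 h), with an exact permutation p of 0.1 each, the smallest that 3 against 3 libraries allow. The keratins KRT7, KRT8 and KRT18 and the A549-typical AKR1B10 and AKR1C1 were high (lowest library 484 TPM, for AKR1C1), EPCAM was at 1.92 to 5.48 TPM, and CDKN2A, known to be deleted in A549, was listed at 0 throughout. Of 9 markers of other cell types, 8 stayed under 2 TPM in all libraries, and the collagen gene COL1A1 lay at 5.37 to 19.3 TPM. Columns numbered 1 and 2 match the labelled replicates. The third column of each group is numbered 4, a number that no label carries, and these 8 libraries stand apart at 12 h. Calls are therefore also given with a block for the column number added to the model, and without the libraries numbered 4. Nothing in the labels says that the libraries of a group came from separate cultures, so p-values measure the spread between these libraries only. In bulk RNA, fewer expressing cells and less RNA per cell cannot be told apart.

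Cytosolic synthetases were the most abundant members. Over the 24 libraries, mean levels ran from 16.6 TPM for FARSB, the beta subunit of the phenylalanine enzyme, and 28.03 TPM for CARS1 (cysteine) to 155 TPM for KARS1 (lysine) and 500.5 TPM for WARS1. The WARS1 mean pools mock and IFN libraries: KARS1 was the highest member in all 4 mock groups, and WARS1 in all 4 IFN groups. The 3 scaffold genes lay between 49.2 (AIMP1) and 71.9 TPM (EEF1E1). Wobble uridine genes ranged from 6.52 TPM for ALKBH8, the methyltransferase of the last step, to 64.6 TPM for the Elongator subunit ELP5. Methylation genes ranged from 13.02 TPM for TRMT61A, the catalytic subunit of the tRNA methyladenosine enzyme, to 66.7 TPM for FTSJ1, a ribose methyltransferase of the anticodon loop. The lowest members of all were ADAT2 at 2.60 TPM and ADAT3 at 3.55 TPM, the subunits of the deaminase that makes wobble inosine, and the highest of their group was PUS1 at 34.3 TPM, a pseudouridine synthase. The 24 libraries of these neighbours overlapped, from 1.67 to 3.85 TPM for ADAT2 and from 2.34 to 5.42 TPM for ADAT3.

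WARS1 (ENSG00000140105.18; GENCODE 29 on GRCh38, chromosome 14, 100333788 to 100376805, minus strand, protein-coding) was the one member with a large change, and it rose with IFN in all 4 comparisons. In siFLuc mock cells its 3 libraries (numbers 1, 2 and 4) read 142, 112 and 128 TPM at 8 h and 112, 112 and 126 TPM at 12 h. With IFN the siFLuc libraries read 770.3, 761 and 618 TPM at 8 h and 917, 969 and 713 TPM at 12 h. The siBOP1 libraries read 139, 126 and 138 TPM (mock, 8 h), 121, 108 and 134 TPM (mock, 12 h), 999, 1017 and 744 TPM (IFN, 8 h), and 1008, 1148 and 847 TPM (IFN, 12 h). The lowest IFN library was thus above every mock library of either siRNA, and in each IFN group the library numbered 4 was the lowest.

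The ratio of WARS1 group means was 5.62 at 8 h and 7.41 at 12 h with siFLuc, and 6.84 and 8.28 with siBOP1. On the log2(TPM + 1) scale, used for all differences below, limma gave 2.48, 2.87, 2.75 and 3.03 (SE 0.14), the adjusted p being 1.4e-11, 1.0e-12, 2.1e-12 and 3.8e-13. Under IFN, WARS1 differed by 0.35 at 8 h and 0.21 at 12 h between siBOP1 and siFLuc (SE 0.14, limma adjusted p 0.240 and 0.768). The siRNA by IFN interaction was 0.27 at 8 h and 0.16 at 12 h (SE 0.20; limma adjusted p 1.0 each). A different WARS1 response under BOP1 depletion was therefore not detected.

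**Figure D1:**
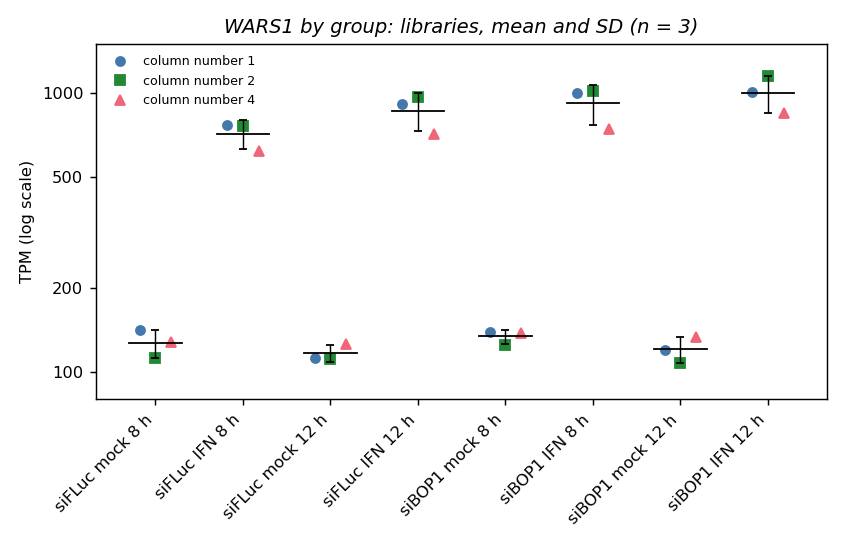
WARS1 level in TPM (log axis) in the 8 groups, with each library as a point by column number and the mean and SD (n = 3) as a bar. All 12 IFN libraries lie between 618 and 1148 TPM, and all 12 mock libraries between 108 and 142 TPM.

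The summed level of the synthetases was higher with IFN in all 4 pairs of groups, and without WARS1 it was lower in all 4. The summed TPM of the 19 synthetase genes was 1590 ± 120.2 in siFLuc mock cells at 8 h and 2112 ± 25.5 with IFN (SD, n = 3 each). Without WARS1, the sum over the other 18 was 1462 ± 113 and 1396 ± 93.8 TPM. At 12 h the sum without WARS1 was 1500 ± 263 in mock and 1373 ± 287 TPM in IFN, and in siBOP1 cells it was 1365 ± 34.2 against 1248 ± 71.4 at 8 h and 1336 ± 147 against 1244 ± 233 at 12 h. These sums lie within 1 SD of each other in 3 of the 4 pairs, and apart in siBOP1 cells at 8 h. Within pairs of the same number, the sum without WARS1 was lower with IFN in 11 of 12, the exception being in siBOP1 cells at 12 h. The median log2 difference over all tested genes was also below 0 under IFN. It was -0.09 and -0.06 with siFLuc (8 h and 12 h) and -0.14 and -0.08 with siBOP1. After rescaling the libraries by median of ratios, it was -0.02 and -0.01 with siFLuc and -0.01 and -0.01 with siBOP1. The sums were not rescaled, and no test was run on them.

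Few members passed under IFN, WARS1 among them in each comparison. In siFLuc cells 3 members passed at 8 h (2 higher, 1 lower), where 10.8% of all tested genes did (5.77% higher, 5.07% lower). At 12 h, 4 passed (1 higher, 3 lower), against 13.5% of all genes (7.06% higher, 6.43% lower). In siBOP1 cells 4 passed at 8 h (2 higher, 2 lower), against 15.1% (5.99% higher, 9.11% lower), and 4 at 12 h (1 higher, 3 lower), against 14.8% (7.17% higher, 7.58% lower). These shares, 6.67% to 8.89% of the members, are no larger than those of all genes. Without WARS1, 1 of 44 was higher (KARS1) and 1 lower in siFLuc cells at 8 h, 1 higher (KARS1) and 2 lower in siBOP1 cells at 8 h, and 0 higher and 3 lower with either siRNA at 12 h. The median difference of the 45 members was -0.10, -0.15, -0.21 and -0.15, beside -0.09, -0.06, -0.14 and -0.08 over all tested genes. With the column-number block, 8, 11, 19 and 13 members passed, of which 6, 10, 17 and 11 were lower, where 12.7%, 15.8%, 20.4% and 16.6% of all genes passed lower. Without the libraries numbered 4, 6, 10, 15 and 11 members passed, of which 4, 9, 13 and 10 were lower, where 8.65%, 11.3%, 13.6% and 13.7% of all genes passed lower.

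**Figure D2:**
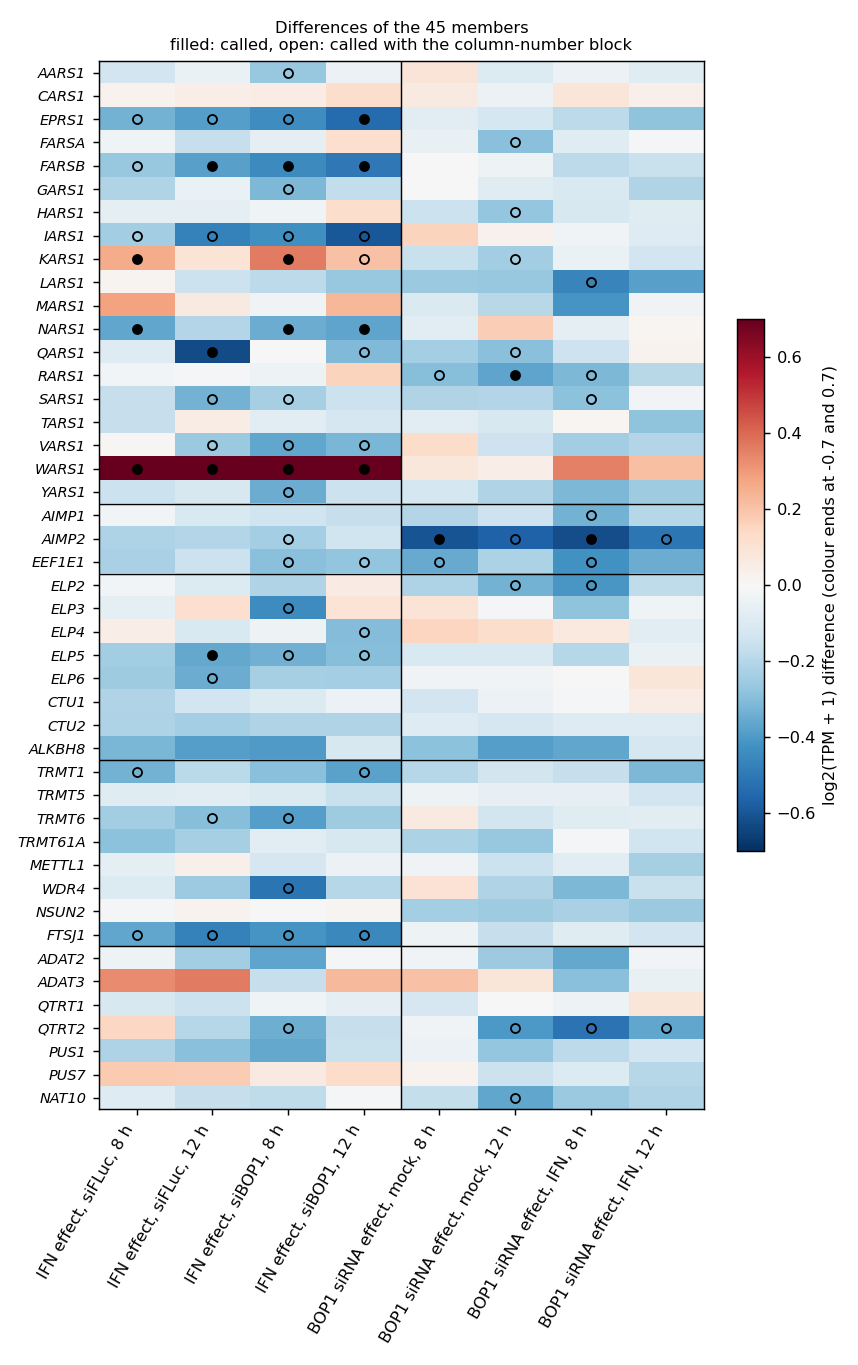
Difference in log2(TPM + 1) of each member (rows, by role) for IFN against mock and siBOP1 against siFLuc (columns). Filled points passed limma's threshold and open points passed it only with the column-number block. WARS1, at 2.48 to 3.03 under IFN, runs past the end of the colour scale, and AIMP2 reaches -0.60 and -0.62 in the siRNA columns at 8 h.

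FARSB fell with IFN in 3 of the 4 comparisons. At 12 h the siFLuc libraries read 17.2, 16.8 and 18.6 TPM in mock and 13.2, 12.4 and 14.1 TPM with IFN. The siBOP1 libraries read 19.6, 20.55 and 21.8 TPM in mock and 14.8, 14.1 and 15.9 TPM with IFN at 8 h, and 17.8, 16.8 and 16.5 against 11.3, 10.7 and 13.4 TPM at 12 h. Mock and IFN libraries did not overlap in any of these pairs. The differences were -0.38, -0.44 and -0.50 (SE 0.10; limma adjusted p 0.0160, 0.0051 and 0.0018). In siFLuc cells at 8 h the difference was -0.26 (limma adjusted p 0.119 without the block and 0.0182 with it). The siFLuc 12 h call was lost without the mock library numbered 4 (adjusted p 0.052) or the IFN library numbered 2 (0.0813), and the siBOP1 8 h call after rescaling the libraries by median of ratios (0.051). Its partner subunit FARSA had no call under IFN.

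NARS1, the asparagine enzyme, fell in siFLuc cells at 8 h and in siBOP1 cells at both times. At 8 h its siFLuc libraries read 107, 111 and 118 TPM in mock and 83.2, 82.0 and 95.5 TPM with IFN, and its siBOP1 libraries 107, 104 and 107 against 85.05, 79.1 and 85.0 TPM. At 12 h the siBOP1 libraries read 112, 114 and 112 TPM in mock and 80.8, 77.5 and 105 TPM with IFN, the library numbered 4 being the high one. The differences were -0.37, -0.35 and -0.37 (SE 0.11; limma adjusted p 0.0382, 0.0375 and 0.0293). In siFLuc cells at 12 h the IFN library numbered 4 (105.2 TPM) lay above all 3 mock libraries, and the difference was -0.21 (adjusted p 0.2505). The 8 h siBOP1 call was lost without any 1 of its 6 libraries (adjusted p up to 0.136). The other 2 calls were lost without any 1 of their 6 libraries other than the IFN library numbered 4 (up to 0.165).

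QARS1, the glutamine enzyme, fell at 12 h in siFLuc cells, from 148, 132 and 131 TPM in mock to 95.1, 71.8 and 102 TPM with IFN. No IFN library reached the lowest mock library. The difference was -0.62 (SE 0.11; limma adjusted p 0.0003), and -0.31 in siBOP1 cells at 12 h (adjusted p 0.0568 without the block and 0.0064 with it). At 8 h the differences were -0.09 and 0.00. From 8 h to 12 h the siFLuc mean went from 109 to 137 TPM in mock and from 103 to 89.5 TPM with IFN. The siBOP1 mean went from 92.6 to 112 TPM in mock and from 92.8 to 90.0 TPM with IFN. The 12 h differences thus include a higher mock level than at 8 h. The siFLuc time by IFN interaction was -0.54, with an unadjusted p of 0.0020 and a limma adjusted p of 1.0.

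KARS1 was the 1 synthetase besides WARS1 that rose with IFN, at 8 h with either siRNA. Its libraries went from 149, 144 and 161 TPM in mock to 168, 182 and 194 TPM with IFN in siFLuc cells at 8 h, and from 136, 134 and 137 to 177, 170.2 and 178 TPM in siBOP1 cells. The groups did not overlap. The differences were 0.26 and 0.37 (SE 0.07; limma adjusted p 0.0262 and 0.0015). At 12 h they were 0.10 and 0.21 (adjusted p 0.454 and 0.066). With the block the 12 h difference in siBOP1 cells passed (adjusted p 0.0150), its libraries reading 133, 128 and 128 TPM in mock and 144, 145 and 161 TPM with IFN. The siFLuc call was lost without either mock library numbered 1 or 2, or either IFN library numbered 2 or 4 (adjusted p up to 0.121), whereas the siBOP1 call held without any 1 library.

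EPRS1, the glutamate and proline enzyme, which is also known as a subunit of an interferon-gamma-activated inhibitor of translation, fell in siBOP1 cells at 12 h. Its libraries read 54.7, 49.7 and 63.3 TPM in mock and 32.6, 32.0 and 52.2 TPM with IFN. In both groups the library numbered 4 was the highest, and the groups overlapped. The difference was -0.54 (SE 0.18; limma adjusted p 0.0447 without the block and 0.0004 with it). In the other 3 comparisons it was -0.33 (siFLuc, 8 h), -0.38 (siFLuc, 12 h) and -0.43 (siBOP1, 8 h), which passed with the block alone. The siBOP1 12 h call was lost without any 1 of the 6 libraries except the IFN library numbered 4 (adjusted p up to 0.211).

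IARS1 (isoleucine) and FTSJ1 showed the effect of the column-number block most plainly. IARS1 read 86.1, 83.1 and 122 TPM in siBOP1 mock cells at 12 h and 53.4, 53.7 and 87.2 TPM with IFN. Within each number the IFN library was the lower one, while the groups overlapped. IFN differences of IARS1 were -0.25 at 8 h and -0.47 at 12 h with siFLuc, and -0.43 and -0.59 with siBOP1. Those of FTSJ1 were -0.36, -0.47, -0.42 and -0.45. For both genes none of the 4 passed without the block (limma adjusted p 0.0607 to 0.536) and all 4 passed with it (adjusted p up to 0.0211).

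Among the 26 scaffold and modification genes, 1 was called under IFN, where 10.8% to 15.1% of all tested genes passed in the 4 comparisons. ELP5, a subunit of the accessory half-complex of Elongator, fell in siFLuc cells at 12 h from 63.2, 70.1 and 70.1 TPM to 49.5, 48.2 and 60.8 TPM. The groups did not overlap. The difference was -0.36 (SE 0.12; limma adjusted p 0.0454), and the call was lost without any 1 of the 6 libraries except the IFN library numbered 4 (adjusted p up to 0.185). With the block, at most 3 members of any such role group passed in a comparison, all lower, where 12.7% to 20.4% of all genes passed lower. METTL1, NSUN2, NAT10, ADAT2, QTRT1 and ALKBH8 had no call under IFN in either fit, and ELP3, the catalytic subunit of Elongator, was called with the block in siBOP1 cells at 8 h alone (-0.44).

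**Figure D3:**
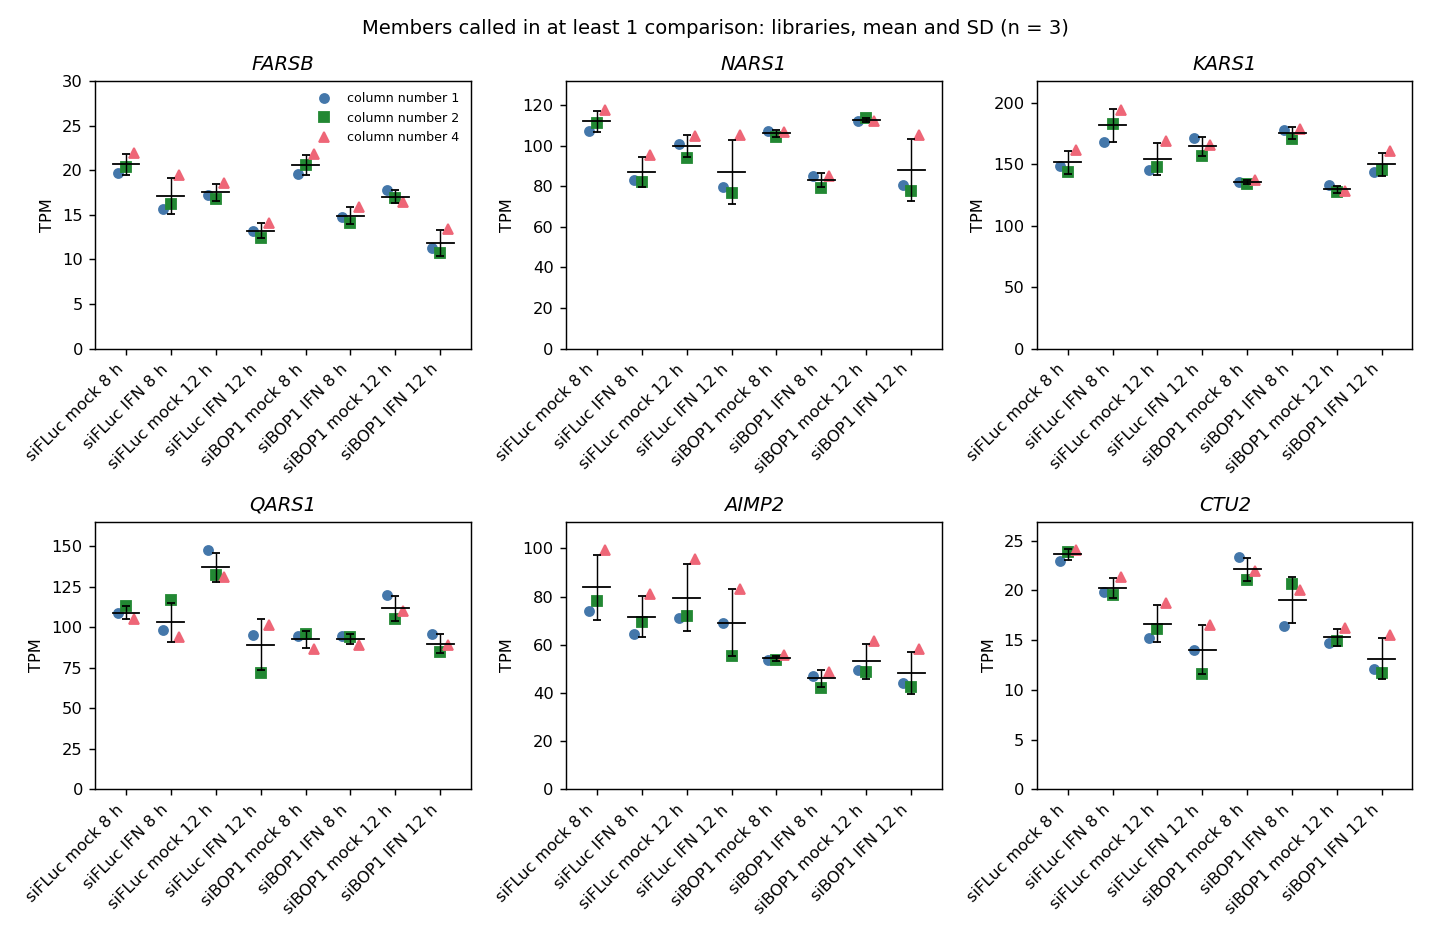
Level in TPM of 6 called members in the 8 groups, with each library as a point by column number and the mean and SD (n = 3) as a bar. FARSB and NARS1 are lower and KARS1 at 8 h higher with IFN, AIMP2 is lower in every siBOP1 group than in its siFLuc group, and CTU2 is lower at 12 h than at 8 h.

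Between the siRNAs, few members passed and none of them was higher. AIMP2, the scaffold protein that many synthetases of the complex contact, fell at 8 h in both treatments, and RARS1 (arginine) fell in mock cells at 12 h. Of 45 members, 1 passed at each time in mock cells, where 2.16% of all tested genes passed at 8 h (1.49% higher, 0.666% lower) and 1.6% at 12 h (0.903% higher, 0.697% lower). With IFN, 1 passed at 8 h, against 2.0% (1.25% higher, 0.76% lower), and 0 at 12 h, against 0.66% (0.392% higher, 0.268% lower). In that last comparison 6 members had an unadjusted p under 0.05 in limma, as did 1444 of the 16062 tested genes. With the block the 4 counts were 3, 9, 8 and 2, all lower, where 2.58%, 3.35%, 3.84% and 1.61% of all genes passed lower. Without the libraries numbered 4 they were 2, 1, 6 and 1, all lower, where 0.903%, 0.791%, 1.36% and 0.33% of all genes passed lower. The member medians were -0.08, -0.15, -0.16 and -0.13, with 34, 40, 41 and 38 members below 0, beside medians of 0.03, 0.00, -0.01 and -0.01 over all genes.

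AIMP2 (ENSG00000106305.10; GENCODE 29 on GRCh38, chromosome 7, 6009245 to 6023834, plus strand, protein-coding) read 74.0, 78.1 and 99.1 TPM with siFLuc and 53.5, 53.7 and 55.6 TPM with siBOP1 in mock cells at 8 h. With IFN at 8 h it read 64.4, 69.6 and 80.9 against 47.2, 42.1 and 48.8 TPM. In mock cells at 12 h it read 70.9, 71.9 and 95.4 against 49.4, 48.6 and 61.6 TPM. The siBOP1 libraries lay below the siFLuc libraries without overlap in these 3 pairs, whereas with IFN at 12 h (68.9, 55.4 and 83.05 against 44.2, 42.6 and 58.1 TPM) they overlapped through the siBOP1 library numbered 4.

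The AIMP2 differences were -0.60 and -0.56 in mock cells at 8 h and 12 h (SE 0.16; limma adjusted p 0.0469 and 0.0755). With IFN they were -0.62 and -0.50 (adjusted p 0.0402 and 0.201). With the block all 4 passed (adjusted p 0.0002, 0.0004, 0.0002 and 0.0022). Both calls at 8 h were lost without any 1 of the 6 libraries compared (adjusted p up to 0.218) and when only these 2 groups were fitted (0.0981 and 0.109), and held when all libraries numbered 4 were left out (0.0218 and 0.0091). The mock and IFN comparisons use different libraries. The E-box CACGTG was in 7 of the 51 member windows, that of AIMP2 among them, and in 7.26% of all windows.

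The other scaffold genes lay lower as well without a call in the unblocked fit. EEF1E1 differed by -0.36, -0.22, -0.42 and -0.34 in the same order, with the 2 values at 8 h called under the block. AIMP1 differed by -0.21, -0.15, -0.33 and -0.20, with a block call under IFN at 8 h. The summed TPM of the 3 scaffold genes was 233 ± 29.4 with siFLuc and 175 ± 9.61 with siBOP1 in mock cells at 8 h (SD, n = 3 each), and 206 ± 15.4 against 150.0 ± 24.0 with IFN at 8 h.

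RARS1 read 103, 105 and 113 TPM with siFLuc and 89.7, 90.0 and 69.95 TPM with siBOP1 in mock cells at 12 h, a difference of -0.37 (SE 0.08; limma adjusted p 0.0249). The siBOP1 library numbered 4 was the lowest. Without it the adjusted p was 0.155, without the siFLuc library numbered 4 0.0911, without that numbered 2 0.0512, and without all libraries numbered 4 the difference was -0.21 (0.141). With the block, RARS1 also passed at 8 h in mock (-0.30) and IFN (-0.32). QTRT2, the partner subunit of the queuine transferase QTRT1, read 20.6, 23.1 and 30.3 TPM with siFLuc and 18.7, 17.99 and 17.9 TPM with siBOP1 in mock cells at 12 h. It passed with the block in 3 comparisons (-0.40 in mock at 12 h, -0.51 and -0.36 with IFN at 8 h and 12 h), and not without it (limma adjusted p 0.0597 to 0.366). For no member did the siRNA by IFN or the time by IFN interaction pass, with or without the block, where 0.0%, 0.0%, 0.00623% and 0.0% of all genes passed in the unblocked fit. The members at an unadjusted p under 0.05 in the unblocked fit numbered 2, 0, 1 and 1, beside 353, 259, 575 and 603 of the 16062 tested genes.

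Between 8 h and 12 h, CTU2, which with CTU1 thiolates the wobble uridine, was the only member called in the unblocked fit. It fell under IFN with both siRNAs, where 3.53% of all genes passed with siFLuc (2.83% higher, 0.697% lower) and 2.96% with siBOP1 (2.45% higher, 0.511% lower). The siFLuc IFN libraries read 19.8, 19.5 and 21.4 TPM at 8 h and 14.03, 11.6 and 16.5 TPM at 12 h. The siBOP1 IFN libraries read 16.45, 20.7 and 20.03 TPM at 8 h and 12.1, 11.7 and 15.5 TPM at 12 h. The 2 times did not overlap with either siRNA. Both differences were -0.51 (SE 0.13; limma adjusted p 0.029 and 0.0319), lost without the 8 h library numbered 2 or 4 or the 12 h library numbered 1 or 2 (up to 0.162), and -0.59 without all libraries numbered 4, a setting in which 6 (siFLuc) and 8 (siBOP1) members passed, all lower, and 1.72% and 2.07% of all genes passed lower.

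In mock cells CTU2 went from 23.0, 23.9 and 24.0 TPM to 15.2, 16.1 and 18.7 TPM with siFLuc and from 23.4, 21.0 and 21.9 TPM to 14.7, 14.9 and 16.2 TPM with siBOP1. These differences of -0.48 and -0.51 were of like size but not called (limma adjusted p 0.111 and 0.104), in comparisons where 0 members and 0.131% (0.118% higher, 0.0125% lower) and 0.23% (0.137% higher, 0.0934% lower) of all genes passed. With the block, CTU2 was called lower at 12 h in all 4 pairs (adjusted p up to 0.0057). CTU1 had no such call. With the block, 2 members were higher and 1 lower in siFLuc mock cells, where 8.37% of all genes passed (6.49% higher, 1.88% lower). In siBOP1 mock cells 1 was higher and 3 lower, against 4.5% (2.93% higher, 1.57% lower). With IFN, 5 were higher and 6 lower with siFLuc, against 18.3% (14.2% higher, 4.16% lower). With IFN and siBOP1, 3 were higher and 6 lower, against 15.0% (11.9% higher, 3.11% lower).

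Libraries of the same group also differed from one another, at 12 h more than at 8 h. At 12 h, 30 of 45 members were higher and 0 lower in the libraries numbered 4 than in those numbered 1 and 2, where 40.3% of all tested genes passed (31.3% higher, 9.09% lower). At 8 h, 11 were higher and 1 (PUS7, -0.19) lower, where 17.3% passed (8.55% higher, 8.72% lower). The member median was 0.28 at 12 h and 0.14 at 8 h, beside 0.12 and -0.01 over all genes. Rescaling by median of ratios moves the median of all genes at 12 h from 0.12 to -0.01. It left 18 members called (17 higher, 1 lower) and a member median of 0.13. The share of all genes called after rescaling is not given here, so that count has no background beside it.

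CARS1 differed most. Its libraries numbered 1 and 2 lay between 21.7 and 25.2 TPM in all 4 groups at 12 h, and those numbered 4 read 48.1 (siFLuc mock), 53.3 (siFLuc IFN), 44.2 (siBOP1 mock) and 52.4 TPM (siBOP1 IFN). The difference was 1.03 (SE 0.05; limma adjusted p 3.8e-09) at 12 h and 0.38 at 8 h. YARS1 (tyrosine) read 87.9, 83.9, 66.9 and 63.0 TPM in the libraries numbered 4 at 12 h and 28.99 to 41.9 TPM in the others, a difference of 0.97. MARS1 (methionine) differed by 0.85, GARS1 (glycine) by 0.73, AARS1 (alanine) by 0.69 and IARS1 by 0.63. ALKBH8 differed by 0.79 and METTL1, the catalytic subunit of a tRNA methylguanosine enzyme, by 0.63, and all 8 methylation genes were called. RARS1 (-0.08) was not called. Neither was WARS1 (-0.08), whose value averages 0.17 and 0.23 in the mock groups (siFLuc, siBOP1) and -0.40 and -0.34 in the IFN groups.

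The 7 synthetases with the amino acid response element core in a promoter window had a median difference of 0.69 at 12 h (0.23 to 1.03, all 7 called). The 9 synthetases with a window and without the core had 0.09 (-0.08 to 0.50, 3 called). At 8 h the medians were 0.23 and 0.03. YARS1, LARS1 (0.39) and VARS1 (0.28), all called at 12 h, have no window in the table. Of 24 genes listed as ATF4 or its targets outside the synthetases, 21 were higher and 1 lower at 12 h, with a median of 0.76. The higher ones include DDIT3 (2.94), CHAC1 (2.44), PPP1R15A (2.27), SESN2 (2.18) and ATF3 (2.14), and ATF4 itself differed by 0.39. At 8 h, ATF4, DDIT3, PSAT1, SHMT2, MTHFD2, SESN2, SLC3A2 and NUPR1 were called higher. DDIT4 (-0.61, against 0.79 at 12 h) and VLDLR (-0.54) were called lower at 8 h. Beside these counts and those of the synthetases, 31.3% of all tested genes were higher and 9.09% lower at 12 h. The shares at 8 h were 8.55% and 8.72%. Genes chosen for other roles were called at 12 h as well. Of those for tRNA transcription and processing, BDP1 (0.89) and POLR3D (0.85) were among the higher ones, and RPP25 (-0.38) was lower. A part of ATF4 in any of these differences was not tested. Mitochondrial genes held 6.86% to 12.2% of TPM in the libraries numbered 4 at 12 h and 12.8% to 15.9% in the others, and the part of this in the result was not tested. Each group holds 1 such library, so the split crosses treatment and siRNA, but its size was not the same in all groups. For LARS1 at 12 h it ran from 0.02 (siBOP1 mock) to 0.58 (siFLuc mock). For CARS1 it ran from 0.89 (siBOP1 mock) to 1.16 (siFLuc IFN). Whether its size follows treatment or siRNA was not tested.

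**Figure D4:**
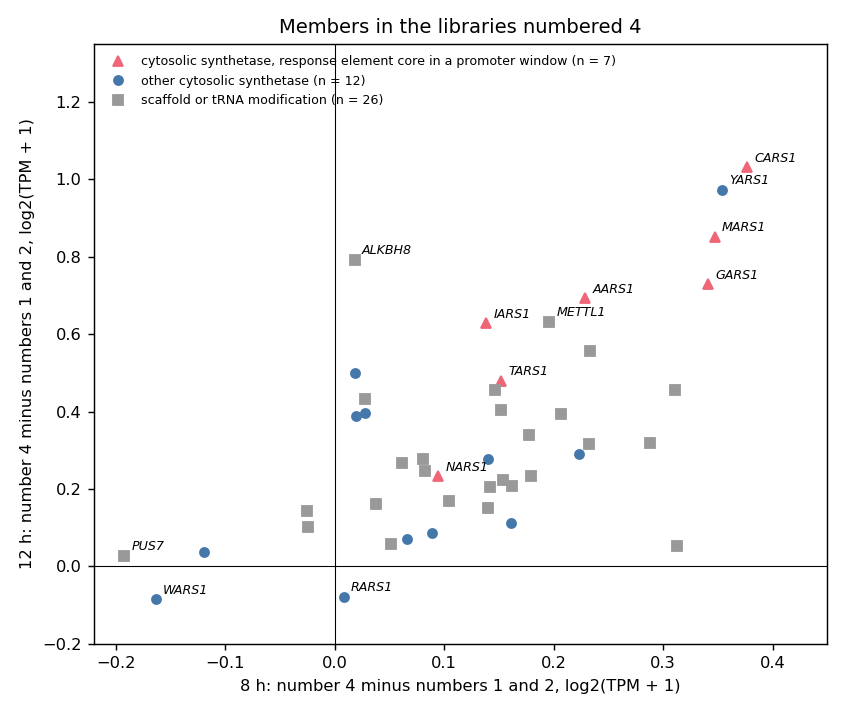
Difference in log2(TPM + 1) between the libraries numbered 4 and those numbered 1 and 2, at 8 h (horizontal) and 12 h (vertical), 1 point per member. CARS1, at 0.38 and 1.03, lies farthest out, and WARS1 lies below 0 on both axes.

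Related genes outside the 45 were read from lists in the same fit. Among 20 mitochondrial synthetase genes under IFN, RARS2 (mitochondrial arginine enzyme) fell in all 4 comparisons (-0.71 and -0.52 with siFLuc, -0.63 and -0.52 with siBOP1, at 8 h and 12 h), and LARS2 (mitochondrial leucine enzyme) rose in 3 (0.45 and 0.40 with siFLuc, 0.59 with siBOP1 at 12 h). CARS2 (mitochondrial cysteine enzyme) fell in 3, by 0.71 and 0.85 on the log2 scale in siBOP1 cells. The list held 1 call higher and 1 lower, 1 and 2, 0 and 3, and 1 and 4 in the 4 comparisons, or 10%, 15%, 15% and 25% of it, beside 10.8%, 13.5%, 15.1% and 14.8% of all genes. Of 49 other tRNA modification genes, 1, 2, 5 and 3 were lower and 0, 0, 0 and 1 higher under IFN, where 5.07%, 6.43%, 9.11% and 7.58% of all genes were lower.

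Of 44 genes for tRNA transcription and processing, 3, 2, 2 and 2 were lower under IFN, against the same shares of all genes, and 0 higher. POP5, a protein subunit of RNase P, fell in 3 comparisons (-0.31, -0.39 and -0.46). The 24 ATF4-related genes moved in both directions under IFN, with 0 higher and 1 lower, 2 and 1, 0 and 3, and 1 and 3. Of all tested genes, 5.77%, 7.06%, 5.99% and 7.17% were higher and 5.07%, 6.43%, 9.11% and 7.58% lower. The serine synthesis gene PSPH fell in 3 comparisons (-0.69, -0.81 and -0.73), while CEBPB, a transcription factor, rose in 2 (0.43 and 0.70) and NUPR1, a stress-induced chromatin protein, in 1 (1.36). Between the siRNAs, the amino acid transporter gene SLC7A5 fell with siBOP1 in all 4 comparisons (-1.18, -1.10, -1.19 and -0.92), CEBPB rose in 2 (0.48 and 0.61), and TRMT112, the activating partner of several methyltransferases including ALKBH8, fell in mock cells at 12 h (-0.45) and with IFN at 8 h (-0.57). LARS2 fell in mock cells at 12 h (-0.65). All these calls are limma's at an adjusted p under 0.05.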

How the data were processed

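The authors deposited 1 table of TPM values, with 60609 gene rows and 24 columns that each sum to 1000000. The aligner, quantification tool, build and annotation are not given in the sources used here, nor is the handling of reads shared between genes. Symbols were found for 60340 Ensembl IDs in a reference table of names, and positions come from GENCODE 29. The members and lists were chosen with earlier results of these data known. After the filter given above, log2(TPM + 1), which understates changes of low genes, was tested with limma 3.58.1 in R 4.3.3: group means over 24 libraries, eBayes with a trend, Benjamini-Hochberg within each comparison, threshold 0.05. SDs are over 3 libraries. TPM keeps no depth, so no counting interval is given.

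Deviations from the group means correlated across genes between same-numbered libraries (r 0.115 to 0.508 over 8 comparisons, above 0.1 each time), so the number was taken as a block within each time. Between libraries of different numbers r ran from -0.388 to 0.255, so the ranges overlapped. Numbers 1 and 2 alone gave r of -0.012 to 0.156, with 3 of 8 above 0.1. The libraries numbered 4 were compared with numbers 1 and 2 in the blocked model. Genes named were BOP1, members with a call, 11 fixed members, the highest and lowest of each role group, and called genes of the other lists. IARS1, FTSJ1, QTRT2 and the members named for the libraries numbered 4 were chosen after their values were seen. Motifs were searched with Python 3.11.15. On simulated data for IFN in siFLuc cells at 8 h (16062 genes), limma recovered 30 of 100 changes of 0.5 and 88 of 100 of 1.0 on the log2 scale, with 10 false calls. Alternatives were the block, a pseudocount of 0.1, keeping all genes with any value above 0, median-of-ratios rescaling, only the compared groups, and leaving out libraries.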

Additional observations from a re-analysis of the deposited data

How the results depend on the processing

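No called difference changed direction under the alternatives run, while some member medians crossed 0. WARS1 under IFN, KARS1 in siBOP1 cells at 8 h and FARSB in siBOP1 cells at 12 h kept their calls in all of them. Of 20 calls of single members between groups, the pseudocount of 0.1 and the replicate block kept 20, rescaling kept 15, no filter 13 and only the compared groups 8. The cause of the changes was not tested, except that fewer libraries enter the last. TPM gives no depth, so its limit on low members such as ADAT2 is unknown.

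With the replicate block, whose number deviates together within a time, the members called under IFN were 8 and 11 (siFLuc, 8 h and 12 h) and 19 and 13 (siBOP1). For the siRNA they were 3 and 9 (mock) and 8 and 2 (IFN), and between times 3 and 11 (siFLuc, mock and IFN) and 4 and 9 (siBOP1). With only the compared groups they were 1, 1, 10 and 2 under IFN in the same order, 0 in mock at 8 h and 12 h and 0 with IFN at 8 h for the siRNA, and 0 between times under IFN for either siRNA. BOP1 with IFN at 12 h then gave -1.92 (limma adjusted p 0.224). With no filter, 2 passed under IFN in siBOP1 cells at 12 h, and 0 for the siRNA at 8 h in mock or IFN. With rescaling, 2 passed under IFN in siBOP1 cells at 8 h, 2 for the siRNA in mock at 12 h and 2 with IFN at 8 h, 1 and 4 between times (mock and IFN, either siRNA), and 18 in the libraries numbered 4 at 12 h. The member medians were then -0.012 (IFN, siFLuc, 8 h), -0.064 (IFN, siBOP1, 8 h) and 0.13 (libraries numbered 4, 12 h). Rescaling moved the median of all genes by over 0.1 in 2 comparisons, IFN in siBOP1 cells at 8 h (-0.14 to -0.01) and the libraries numbered 4 at 12 h. The shares of all genes called with only the compared groups, no filter or rescaling are not given here. Those member counts therefore have no background beside them.

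Leaving out 1 library or all those numbered 4, the members called ranged from 1 to 6 and 2 to 10 under IFN with siFLuc (8 h, 12 h) and from 3 to 15 and 2 to 11 with siBOP1. For the siRNA they ranged from 0 to 2 and 0 to 1 in mock and 0 to 6 and 0 to 1 with IFN. Between times they ranged from 0 to 1 and 0 to 6 with siFLuc (mock, IFN) and 0 to 2 and 0 to 8 with siBOP1. The shares of all genes called without 1 library are not given here, so these ranges show only how unstable the counts are. Member medians ranged from -0.20 to -0.041 and -0.33 to -0.018 under IFN with siFLuc, and from -0.25 to -0.18 and -0.28 to -0.041 with siBOP1. For the siRNA they ranged from -0.15 to 0.0032 and -0.25 to -0.020 in mock, and from -0.22 to -0.11 and -0.27 to 0.029 with IFN. They ranged from -0.20 to 0.025 between times in siFLuc mock cells, from -0.11 to 0.15 for the siRNA by IFN interaction at 12 h, and for the time by IFN interaction from -0.17 to 0.054 (siFLuc) and -0.075 to 0.14 (siBOP1).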
